A study of Mus musculus with 2 samples.

Results

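8 complement genes, C1ra, C1s1, C4b, C2, C3, Cfb, Serping1 and C7, were followed across the stromal, epithelial and myeloid cells of mouse ear skin in allergic contact dermatitis (ACD). They were chosen by name out of the 27998 genes in the count tables, with earlier results of these data known. Counts of members set beside all genes below are therefore descriptions only. All 8 were present in both libraries. The data were droplet single-cell RNA-seq profiles of ear skin from male ICR mice aged 7 to 8 weeks, in 1 control library from healthy ears and 1 ACD library. For ACD, mice were sensitized on the dorsal skin with 1.0% dinitrofluorobenzene (DNFB, a contact allergen), were challenged 6 days later with 0.2% DNFB on the ears and were sampled 60 hr after the challenge. Skin was dissociated with enzymes and dead cells were removed before loading. The sources used here do not say how many mice each library holds, so each group is 1 sample, no test between groups was possible, and every interval below covers counting error only.

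The filter kept 12213 of 12895 barcodes in the control library and 11665 of 13163 in the ACD library, with medians of 6850 and 7447 unique molecular identifiers (UMIs, each a counted RNA molecule) per cell. 47 kept barcode sequences occurred in both libraries. Cells were clustered without the complement genes and named from marker genes. Dermal fibroblast-like (dFB-like) cells numbered 3847 in control and 1804 in ACD, perichondrial-like cells 1307 and 1341, pericyte-like cells 217 and 101, keratinocyte-like cells 179 and 136, and macrophage-like cells 31 and 146. Of the fixed markers, 11 of 11 for dFB-like, 7 of 8 for perichondrial-like, 8 of 9 for pericyte-like, 10 of 10 for keratinocyte-like and 16 of 19 for macrophage-like cells were at least 2-fold above the other cells. The same markers gave the classes their names, so these counts are not an independent check of the names. Within the dFB-like class, the largest control cluster was led by Ccl7, Postn and Cilp (1682 control and 180 ACD cells) and the largest ACD cluster by Saa3, Ccl7 and Clec3b, with Cxcl9 next (581 and 849 cells). In dFB-like cells the T cell chemokine Cxcl9 was at 1.94 UMIs per 1000000 UMIs of the class (UPM, the unit of every level below) in control and 511 in ACD.

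Complement is a cascade of plasma and tissue proteases that marks surfaces for removal, releases inflammatory peptides and can assemble a membrane pore. In the classical pathway the protease C1r activates the protease C1s, which cuts C4 and C2, whose fragments form a C3 convertase. In the alternative pathway factor B joins C3b to form a second convertase. The C1 inhibitor encoded by Serping1 blocks C1r and C1s, and C7 belongs to the membrane attack complex. Liver makes most plasma complement, while fibroblasts and macrophages are known local sources.

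In GENCODE M21 on GRCm38, C1ra (ENSMUSG00000055172, chr6:124512405-124523443, plus strand) and C1s1 (ENSMUSG00000038521, chr6:124530345-124542359, minus strand) face each other with 6901 bases between them. Cfb (ENSMUSG00000090231, chr17:34856374-34862518) and C2 (ENSMUSG00000024371, chr17:34862604-34898265) lie on the minus strand with 85 bases between them, and C4b (ENSMUSG00000073418, chr17:34728380-34743882, minus strand) lies 112491 bases from Cfb. C3 (ENSMUSG00000024164) is at chr17:57203970-57228136, Serping1 (ENSMUSG00000023224) at chr2:84765387-84775444 and C7 (ENSMUSG00000079105) at chr15:4988762-5063740, all on the minus strand. Several members have close copies or overlapping genes that could share reads. The paralog C1rb was counted separately with 8884 UMIs in the kept cells against 15632 for C1ra, and C1s2 with 4414 against 27516 for C1s1. C4a, the near-identical copy of C4b, was not analysed here, so the C4b values are uncertain in that respect. Gm20547 overlaps Cfb by 6107 bases and C2 by 19439 bases on the same strand and had 1 UMI in all deposited barcodes, and Zbtb12 overlaps C2 by 17385 bases on the other strand, with 1362 UMIs in the same barcodes.

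Promoters of 4 of the 8 members were in the RefSeq table (GRCm38.p6, 250 bases before to 50 after the start). These 4 genes are shown because their promoters were available, not for their levels. Capitals mark matches on either strand to GAAANNGAA (the type bound by interferon regulatory factors), TTCNNNGAA (gamma-activated site, or GAS, type, its own reverse complement), GGGNNTTCC (NF-kB type) or TTNNGCAA (C/EBP type). Of 32851 promoters of this length, 8.56% held the first, 8.30% the second, 5.82% the third and 10.8% the fourth.
C1ra, chr6:124512371-124512670, plus strand: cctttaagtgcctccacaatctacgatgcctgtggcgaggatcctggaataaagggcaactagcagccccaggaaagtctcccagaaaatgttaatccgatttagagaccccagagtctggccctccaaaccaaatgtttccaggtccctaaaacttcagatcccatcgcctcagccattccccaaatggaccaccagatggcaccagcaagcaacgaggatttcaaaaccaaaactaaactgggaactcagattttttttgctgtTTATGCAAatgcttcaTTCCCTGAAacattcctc
C1s1, chr6:124542310-124542609, minus strand: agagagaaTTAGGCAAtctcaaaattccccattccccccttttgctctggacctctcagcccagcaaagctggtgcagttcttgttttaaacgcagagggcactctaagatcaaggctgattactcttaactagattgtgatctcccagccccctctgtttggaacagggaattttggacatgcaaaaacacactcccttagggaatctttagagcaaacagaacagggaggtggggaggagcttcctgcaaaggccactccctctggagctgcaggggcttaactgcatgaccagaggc
C3, chr17:57228087-57228386, minus strand: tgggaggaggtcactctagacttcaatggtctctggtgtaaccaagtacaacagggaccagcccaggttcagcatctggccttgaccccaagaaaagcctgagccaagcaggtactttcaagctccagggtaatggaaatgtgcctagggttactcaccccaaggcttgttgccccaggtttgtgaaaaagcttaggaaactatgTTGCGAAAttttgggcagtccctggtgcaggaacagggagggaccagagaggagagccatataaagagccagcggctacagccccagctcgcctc
C7, chr15:5063724-5064023, minus strand: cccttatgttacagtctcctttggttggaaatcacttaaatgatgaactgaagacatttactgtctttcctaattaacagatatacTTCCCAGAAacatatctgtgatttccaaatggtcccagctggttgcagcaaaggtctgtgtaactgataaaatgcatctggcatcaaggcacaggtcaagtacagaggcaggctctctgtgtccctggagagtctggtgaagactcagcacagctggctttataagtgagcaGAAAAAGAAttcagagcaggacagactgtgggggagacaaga
The C1ra promoter held a C/EBP-type match that starts 17 bases after the start site and a GAS-type match 33 bases after it. That RefSeq start site lies downstream of the GENCODE start of C1ra at base 124512405. Most of this window is therefore inside the gene by the GENCODE annotation. The C1s1 window held a C/EBP-type match at base -242, and the window of a second annotated C1s1 start further downstream held no match. C3 held a C/EBP-type match on the opposite strand at base -45. C7 held a GAS-type match at base -164 and an interferon-regulatory type match 9 bases after the start. No window of these 4 genes held the NF-kB-type letters, and a match is a description of the sequence, not evidence of binding.

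The UMIs of most members lay in dFB-like cells in both libraries. Of all UMIs counted for a gene in a library, dFB-like cells held 82.7% for C3 in control and 67.3% in ACD, 73.9% and 62.7% for Serping1, 71.9% and 60.6% for Cfb, 62.6% and 54.5% for C1ra, 57.7% and 52.6% for C1s1, 60.7% and 62.0% for C2, and 88.8% and 92.7% for C7. C4b was the exception, with 58.2% and 59.3% of its UMIs in chondrocyte-like cells and 30.6% and 17.5% in dFB-like cells. Pericyte-like cells held 21.2% and 13.4% of the C2 UMIs although they were 1.78% and 0.866% of the cells. Perichondrial-like cells held 9.23% of the C1ra UMIs in control and 17.0% in ACD, and 10.4% and 19.2% of those of C1s1. Macrophage-like cells held under 1% of the UMIs of every member in both libraries.

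**Figure D1:**
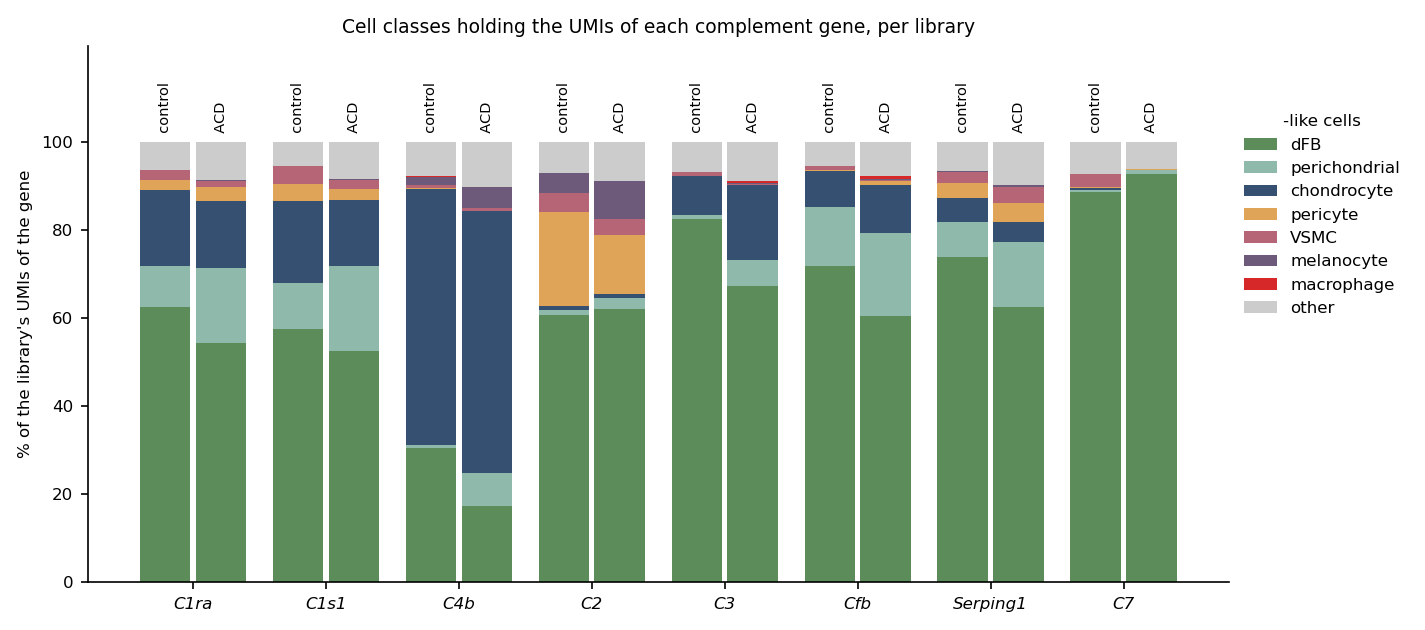
Share of each gene's UMIs held by each cell class (stacked bars, % of the library's UMIs of that gene, control on the left and ACD on the right of each pair). dFB-like cells hold the largest share for 7 genes, chondrocyte-like cells for C4b, with 58.2% in control and 59.3% in ACD.

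Summed over all kept cells, the ratios differed from those within the classes, and the mix of classes differed too, with dFB-like cells at 31.5% of the control cells and 15.5% of the ACD cells. C3 stood at 351 UMIs per 1000000 UMIs of the library in control and 317 in ACD, for a log2 ratio of -0.15. With each class at its ACD level but at its control share of UMIs, the log2 ratio of C3 was 0.50. The same recalculation took Serping1 from 0.20 to 0.76, C1ra from 0.52 to 1.05, C2 from 0.28 to 0.85, C1s1 from 1.03 to 1.54 and C4b from 1.10 to 1.54. C7 was at -1.56 as counted and at -0.79 with the control shares. The number of cells of a class in a library also depends on dissociation and loading, and its part in these totals was not tested.

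In dFB-like cells 5 of the 8 members passed the rule of size, at least 2-fold on log2 of the level plus 10 UPM with at least 50 UMIs in the class, and all 5 were higher in ACD. They were C1s1, Cfb, C1ra, C2 and C4b, against 0.862% of 12188 genes higher and 0.164% lower by the same rule. The added 10 shrinks the ratios of genes far below 10 UPM, so a 2-fold difference there does not pass. The shares over all genes, here and below, were not matched to the members' levels. No member was past the rule in the lower direction in the class as a whole. All 8 would have had at least 50 UMIs with both libraries at the lower of the 2 levels. Below, a member that would not is said to reach the minimum through 1 library, and its passing the rule is no support. The median log2 ratio of the 8 members, with the 10 added, was 1.03 against 0.00 over all genes measured in this class.

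Both classical proteases were higher in ACD dFB-like cells. C1s1 was at 163 UPM (95% interval 159 to 168) in control and 527 (516 to 537) in ACD, a 3.23-fold difference with a log2 ratio of 1.69 (1.64 to 1.74). C1ra was at 127 (123 to 131) and 274 (266 to 281), for a log2 ratio of 1.11 (1.05 to 1.17). The control and ACD intervals of both genes lay far apart. C1s1 passed the rule in 13 of 13 unmixed dFB-like sub-clusters, and C1ra in 9 of the 12 where it had enough UMIs, in 1 of them for each gene with the minimum reached through ACD. The copies C1rb and C1s2 moved alongside, from 70.3 to 158 and from 26.9 to 88.3 UPM.

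C4b and C2, the substrates of C1s, were at 127 (123 to 131) and 89.3 (86.0 to 92.8) in control dFB-like cells and at 270 (263 to 278) and 193 (187 to 199) in ACD. Their log2 ratios were 1.09 (1.03 to 1.15) and 1.11 (1.04 to 1.18), so that C1ra, C2 and C4b all lay just past the 2-fold rule. Cfb, the serine protease of the alternative convertase, had the largest ratio of the 8 in this class. It stood at 27.3 (25.5 to 29.2) in control and 112 (107 to 117) in ACD, a 4.10-fold difference with a log2 ratio of 2.04 (1.92 to 2.15).

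C3, the central component that both convertases cut, was already abundant in control dFB-like cells and differed less, at 882 (871 to 892) and 1125 (1110 to 1140), for a log2 ratio of 0.35 (0.33 to 0.38). Serping1 was at 1179 (1167 to 1191) and 1997 (1977 to 2017), for a log2 ratio of 0.76 (0.74 to 0.78) that did not pass the 2-fold rule. C7 was the only member lower in ACD, at 24.0 (22.3 to 25.9) and 14.8 (13.1 to 16.6), for a log2 ratio of -0.70 (-0.91 to -0.50), also short of the rule in the class as a whole. The count of 5 fell to 2 when cells were weighted equally or when the Cxcl9-led sub-cluster was left out, because C1ra, C2 and C4b then lay between 0.82 and 0.96 on log2 of the level plus 10. Clustering at the higher resolution also gave 2, and C3 was then at -0.26. Of the myeloid genes, Cd74 was at 4.25 UPM in control dFB-like cells and 83.8 in ACD, Lyz2 at 0.922 and 4.71 and Csf1r at 13.0 and 12.2.

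**Figure D2:**
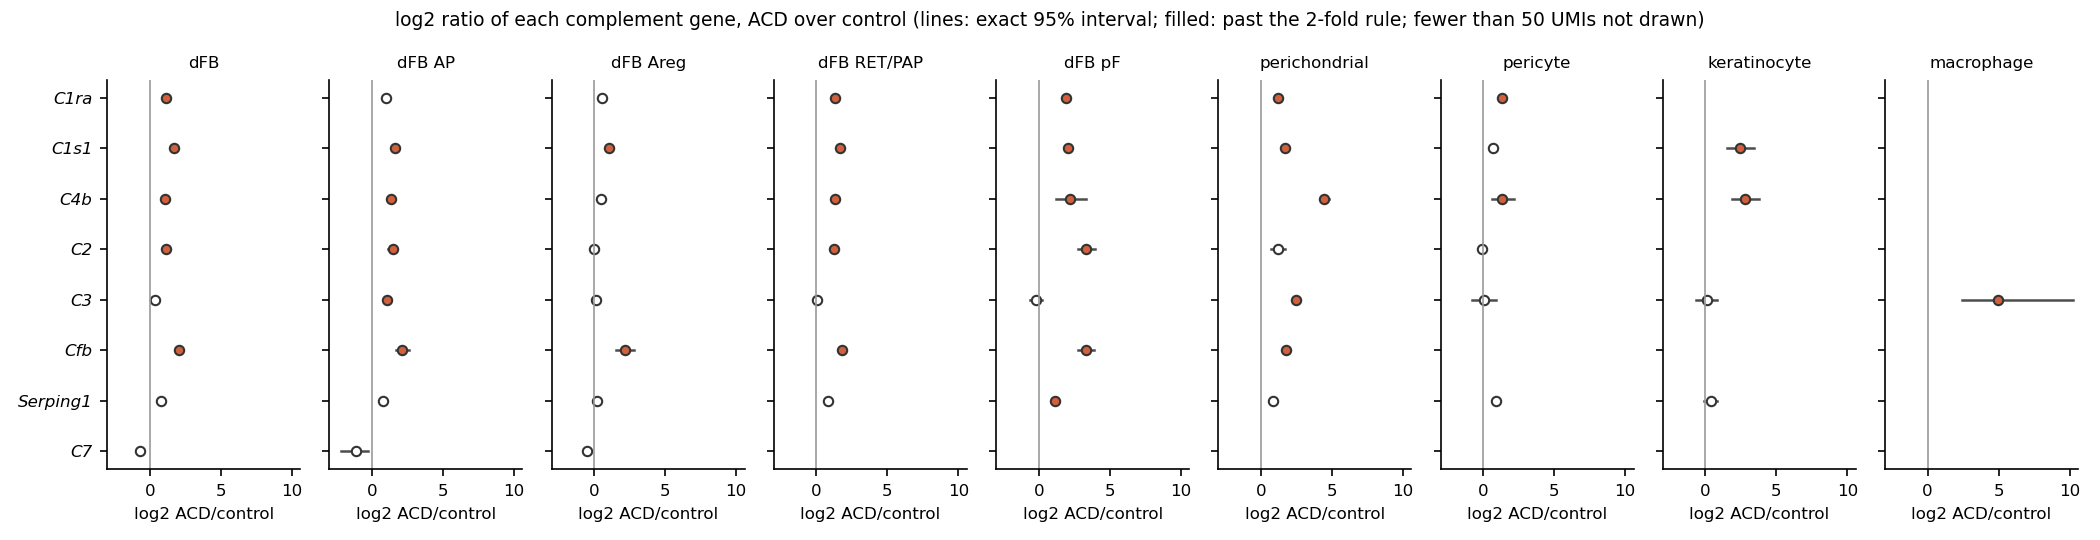
log2 ratio of ACD over control for each gene (points) with its exact 95% counting interval (lines), 1 panel per class, genes with under 50 UMIs in a class not drawn, filled points past the 2-fold rule. C1s1 is filled in every dFB-like panel, perichondrial-like C4b stands at 4.45, and C7 is to the left of 0 in the dFB-like panels where it is drawn.

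The dFB-like cells were split further, and 4 groups of sub-clusters met the markers of a named subtype. AP-like (adipocyte progenitor, led by Gap43 and Pi16) cells numbered 311 in control and 68 in ACD, Areg-like (led by Sfrp4 and Mgp, with C7 next) 148 and 92, RET/PAP-like (reticular or papillary, led by Igfbp2 and Stc1 or by Dlk1) 1214 and 189, and pF-like (peri-follicular, led by Coch and Crabp1) 461 and 418. The Dlk1-led sub-cluster (507 and 48 cells) had Tnc and Postn of the RET/PAP list among its leading genes, but Dlk1 itself is on the AP list, so its name is uncertain and RET/PAP-like values are also given without it. The other 1713 and 1037 dFB-like cells stayed unnamed, and no sub-cluster met the markers of preadipocytes. Members past the rule and higher in ACD were 5 of 8 in AP-like (1.27% of all genes measured there), 2 of 8 in Areg-like (1.81%), 5 of 7 in RET/PAP-like (0.883%) and 6 of 7 in pF-like cells (1.07%), where C4b (10 and 65 UMIs) reached the minimum through ACD and 5 of the other 6 passed. When genes that differed between the libraries were kept in the sub-clustering, these counts were 2, 0, 0 and 6, so that the pF-like count alone did not depend on that choice. Without the Dlk1-led sub-cluster, an alternative chosen after seeing the data, the RET/PAP-like count was also 5 of 7.

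The pF-like cells had the lowest control levels of the 4 subtypes for every member but C7. C2 was at 11.7 UPM (7.63 to 17.1) in control and 117 (105 to 130) in ACD, for a log2 ratio of 3.32 (2.75 to 3.96). Cfb was at 12.6 (8.36 to 18.2) and 125 (113 to 138), with the same log2 ratio of 3.32 (2.76 to 3.92). C1ra went from 49.0 to 185 and C1s1 from 55.3 to 229, and Serping1 from 911 (872 to 951) to 2042 (1992 to 2093), its only subtype past the rule. C3 did not follow them, with 34.6 (27.3 to 43.2) and 30.4 (24.6 to 37.1). In the 2 pF-like sub-clusters C3 went in opposite directions, from 14.5 to 33.9 in the one led by Coch and Fmod and from 67.7 to 25.9 in the one led by Fmod and Coch with Cck, on 20 to 59 UMIs each, and the second passed the rule as lower.

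Areg-like cells, named for adipogenesis-regulatory cells, held the highest control levels among the 4 subtypes of every member but Cfb, and their median ratio was the smallest, 0.34 on log2 with the 10 added. C2 was at 422 (382 to 464) in control and 425 (384 to 469) in ACD, C4b at 359 (323 to 398) and 510 (465 to 558), and Serping1 at 2827 (2724 to 2933) and 3200 (3086 to 3318). Only C1s1, from 275 to 578, and Cfb, from 26.8 to 118, passed the rule there. C7 was highest in this subtype, at 266 (235 to 300) in control and 187 (160 to 217) in ACD, against 28.9 (23.1 to 35.7) and 13.0 (6.70 to 22.6) in AP-like cells. In RET/PAP-like cells C7 had 28 UMIs in control and 1 in ACD, and in pF-like cells 6 and 0. C7 had at least 50 UMIs in 4 sub-clusters, with an interval below 0 in all 4, from -2.09 in the Tnc-led one to -0.51 in the Areg-like one. It passed the rule as lower in 2 of the 4, the Tnc-led one, from 30.2 to 7.12 on 161 and 9 UMIs, where the minimum was reached through control, and the one led by Thbs4 and Ptn, from 69.6 to 25.5 on 144 and 53 UMIs.

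C3 passed the rule in AP-like cells and in neither of the sub-clusters named RET/PAP-like. In AP-like cells C3 was at 1133 (1095 to 1172) in control and 2376 (2278 to 2478) in ACD, for a log2 ratio of 1.07 (0.99 to 1.15). In the sub-cluster led by Igfbp2 it was at 487 (471 to 504) and 769 (730 to 809), for a log2 ratio of 0.66 (0.57 to 0.75), and in the one led by Dlk1 at 1980 (1936 to 2025) and 2120 (1996 to 2250), for 0.10 (0.01 to 0.19). Summed as RET/PAP-like, with 707 and 507 control cells but 141 and 48 ACD cells, they gave 1017 (998 to 1036) and 1052 (1012 to 1094). C4b went from 157 to 391 in AP-like cells, from 127 to 379 in the Igfbp2-led and from 208 to 377 in the Dlk1-led sub-cluster, where it did not pass the rule. C1s1 went from 208 to 647 in AP-like cells and from 97.5 to 401 in the Igfbp2-led sub-cluster, and was 2.95-fold higher, at 735 in ACD, in the Dlk1-led one, passing the rule in each. Among the unnamed sub-clusters, C3 also differed in the one led by Thbs4 and Ptn, from 734 to 2014, and in the one led by 6030408B16Rik, from 64.2 to 477. With every sub-cluster held at its control share of UMIs, the dFB-like log2 ratio of C3 was 0.51 in place of 0.35, that of C4b 1.31 in place of 1.09 and that of C7 -1.11 in place of -0.70, while C1s1 stayed at 1.72 against 1.69.

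**Figure D3:**
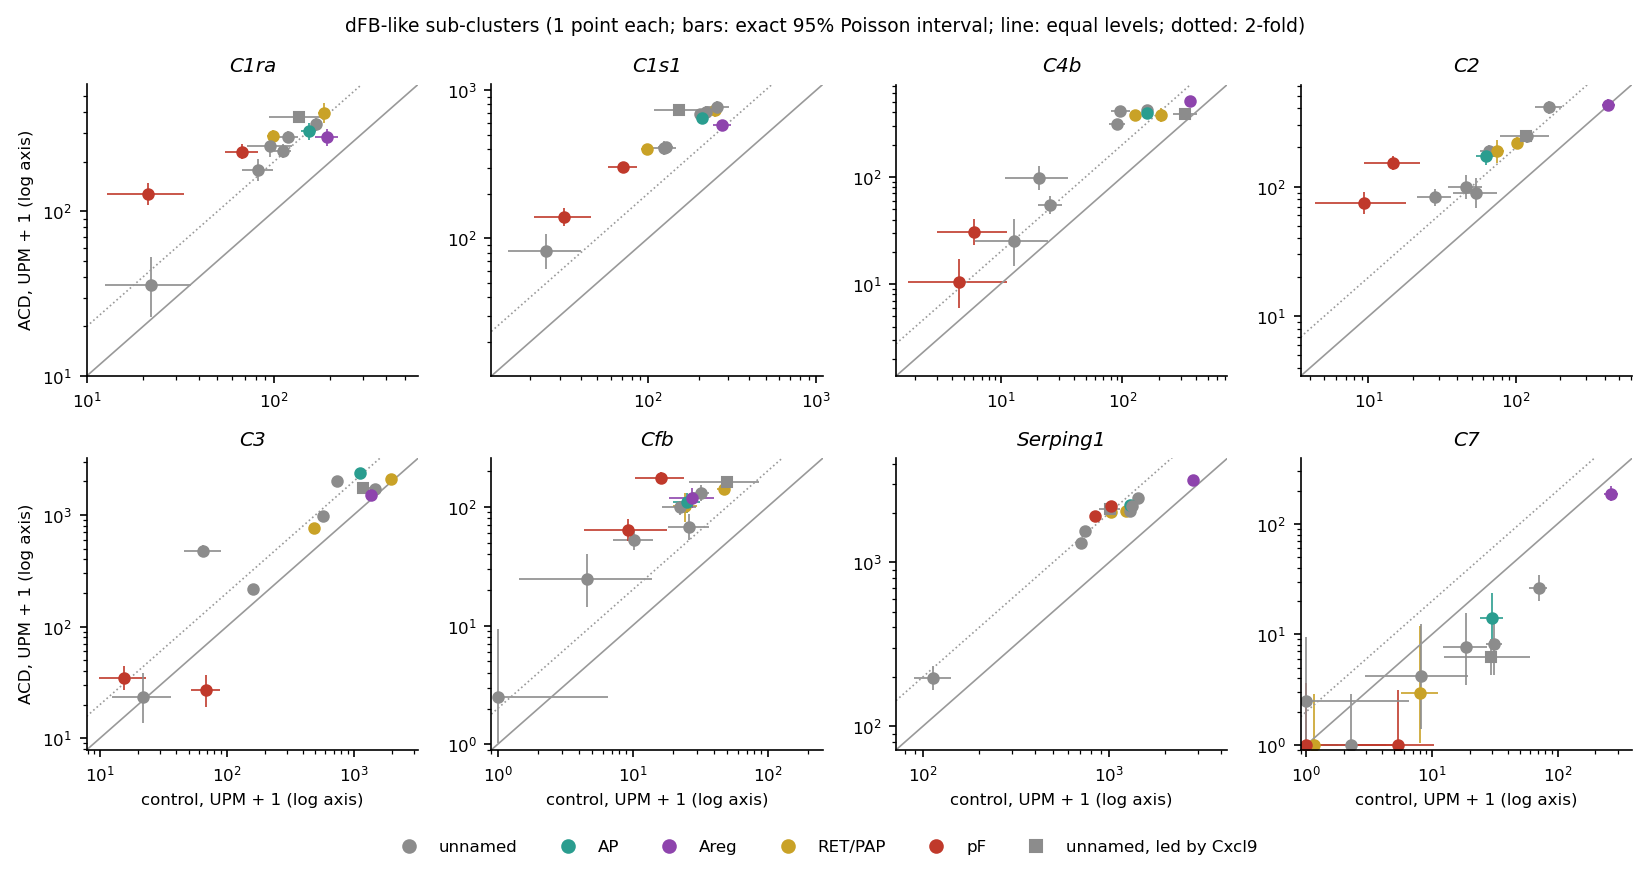
Level of each gene in the 13 unmixed dFB-like sub-clusters (1 point each), control on the x axis and ACD on the y axis, both in UPM plus 1 on log axes, with exact 95% Poisson intervals. C1s1 and Cfb points lie above the line of equal levels, C3 points scatter on both sides of the dotted 2-fold line with 1 pF-like point below equality, and the named C7 points lie below equality or at 0.

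The sub-cluster led by Cxcl5, Cxcl9 and Saa3 held 28 control and 282 ACD cells. There C1s1 was at 152 (107 to 209) and 729 (703 to 756), Cfb at 49.2 (25.4 to 86.0) and 161 (149 to 174), and C3 at 1194 (1061 to 1339) and 1759 (1718 to 1800). C4b was at 328 and 388, for a log2 ratio of 0.24 (-0.08 to 0.58), and did not pass the rule. Among ACD dFB-like cells thinned to 2000 UMIs each, the 232 with a Cxcl9 UMI had 763 C1s1 UPM (686 to 847) and the 1538 without had 417 (395 to 441). C3 was at 1731 (1613 to 1855) with and 828 (796 to 861) without, and Cfb at 200 (162 to 246) and 85.8 (75.8 to 96.8). No C7 UMI was found in the cells with Cxcl9, with an exact 95% upper limit of 7.95 UPM, and those without had 20.8 (16.0 to 26.6). These cells come from 1 library and are not replicates.

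Perichondrial-like cells, the layer around the ear cartilage, had the largest C4b difference of the main classes. 5 of 7 members with enough UMIs passed the rule and were higher in ACD, against 0.712% of 11098 genes higher and 0.0451% lower, and none of the members was lower. C4b was at 7.82 UPM (6.19 to 9.75) in control and 172 (164 to 179) in ACD, a 21.9-fold difference with a log2 ratio of 4.45 (4.13 to 4.80). C3 was at 26.1 (23.1 to 29.5) and 145 (138 to 151), for a log2 ratio of 2.47 (2.28 to 2.66). C1s1 was at 88.4 and 285, C1ra at 56.1 and 127, and Cfb at 15.4 and 51.5.

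The perichondrial-like share of cells with a C4b UMI, after each cell was thinned to 2000 UMIs, was 2.00% (1.31 to 2.92) in control and 19.3% (17.3 to 21.6) in ACD. The unthinned shares were 4.67% and 37.2%, at median depths of 7083 and 8667 UMIs. T/NK/ILC-like cells served for comparison and had 1.75% and 2.34% at median depths of 3538 and 5323, with intervals of 0.960 to 2.92 and 1.86 to 2.91. They are not a clean background, since C4b there was 2.64 and 2.42 times, and C2 in control 3.75 times, the level that the dFB-like ratio to Dcn would bring. The perichondrial-like share was within the T/NK/ILC-like interval in control and above it in ACD. The fibroblast genes Col1a1, Col1a2, Col3a1, Dcn and Lum summed to 28670 and 25298 UPM in perichondrial-like cells. The myeloid genes Lyz2, Cd74 and Csf1r summed to 4.46 and 630, against 25714 and 26894 in macrophage-like cells. Cd74 alone was at 2.08 and 627 in perichondrial-like cells, Lyz2 at 1.29 and 2.42 and Csf1r at 1.09 and 0.548. The part of other cells' RNA in the differences of this class was not tested. Serping1 was at 386 (374 to 399) and 695 (681 to 710), short of the rule, and C2 and C7 stayed under 12 UPM in both libraries. Chondrocyte-like cells, the neighbours of this class, were higher in C4b than perichondrial-like cells in both libraries. Under the alternatives the perichondrial-like log2 ratio of C4b ranged from 1.41 with the libraries clustered separately to 4.29 with a pseudocount of 1, against 3.35, on log2 of the level plus the pseudocount.

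Pericyte-like cells, the contractile cells on small vessels, held the highest C2 of any class. C2 was at 830 UPM (778 to 884) in control and 795 (740 to 852) in ACD, with intervals that overlap, and 67.8% and 66.0% of thinned cells had a C2 UMI against 12 of 800 and 24 of 3373 T/NK/ILC-like cells. 2 of 6 members with enough UMIs were past the rule and higher, C1ra and, with the minimum reached through ACD, C4b, against 2.02% of 5090 genes higher and 2.20% lower, and no member was lower. C1ra was at 128 (108 to 150) and 322 (288 to 360), and C4b at 20.1 (12.8 to 30.2) and 51.7 (38.5 to 68.0). Serping1 was at 1439 (1370 to 1510) and 2681 (2580 to 2785), for a log2 ratio of 0.90 (0.81 to 0.99). Cfb had 2 UMIs in control and 27 in ACD, for a log2 ratio of 3.97 with an interval from 1.98 to 7.09, on too few UMIs for the rule. C3 was low in both libraries at 23.6 and 24.3. The same 5 fibroblast genes summed to 7625 UPM in control pericyte-like cells and 4312 in ACD, against 74942 and 50731 in dFB-like cells, and with the Dcn level of pericyte-like cells the dFB-like ratio of C2 to Dcn would give 9.17 and 6.98 UPM of C2. With Scrublet doublet calls removed, 1 member in place of 2 was past the rule.

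**Figure D4:**
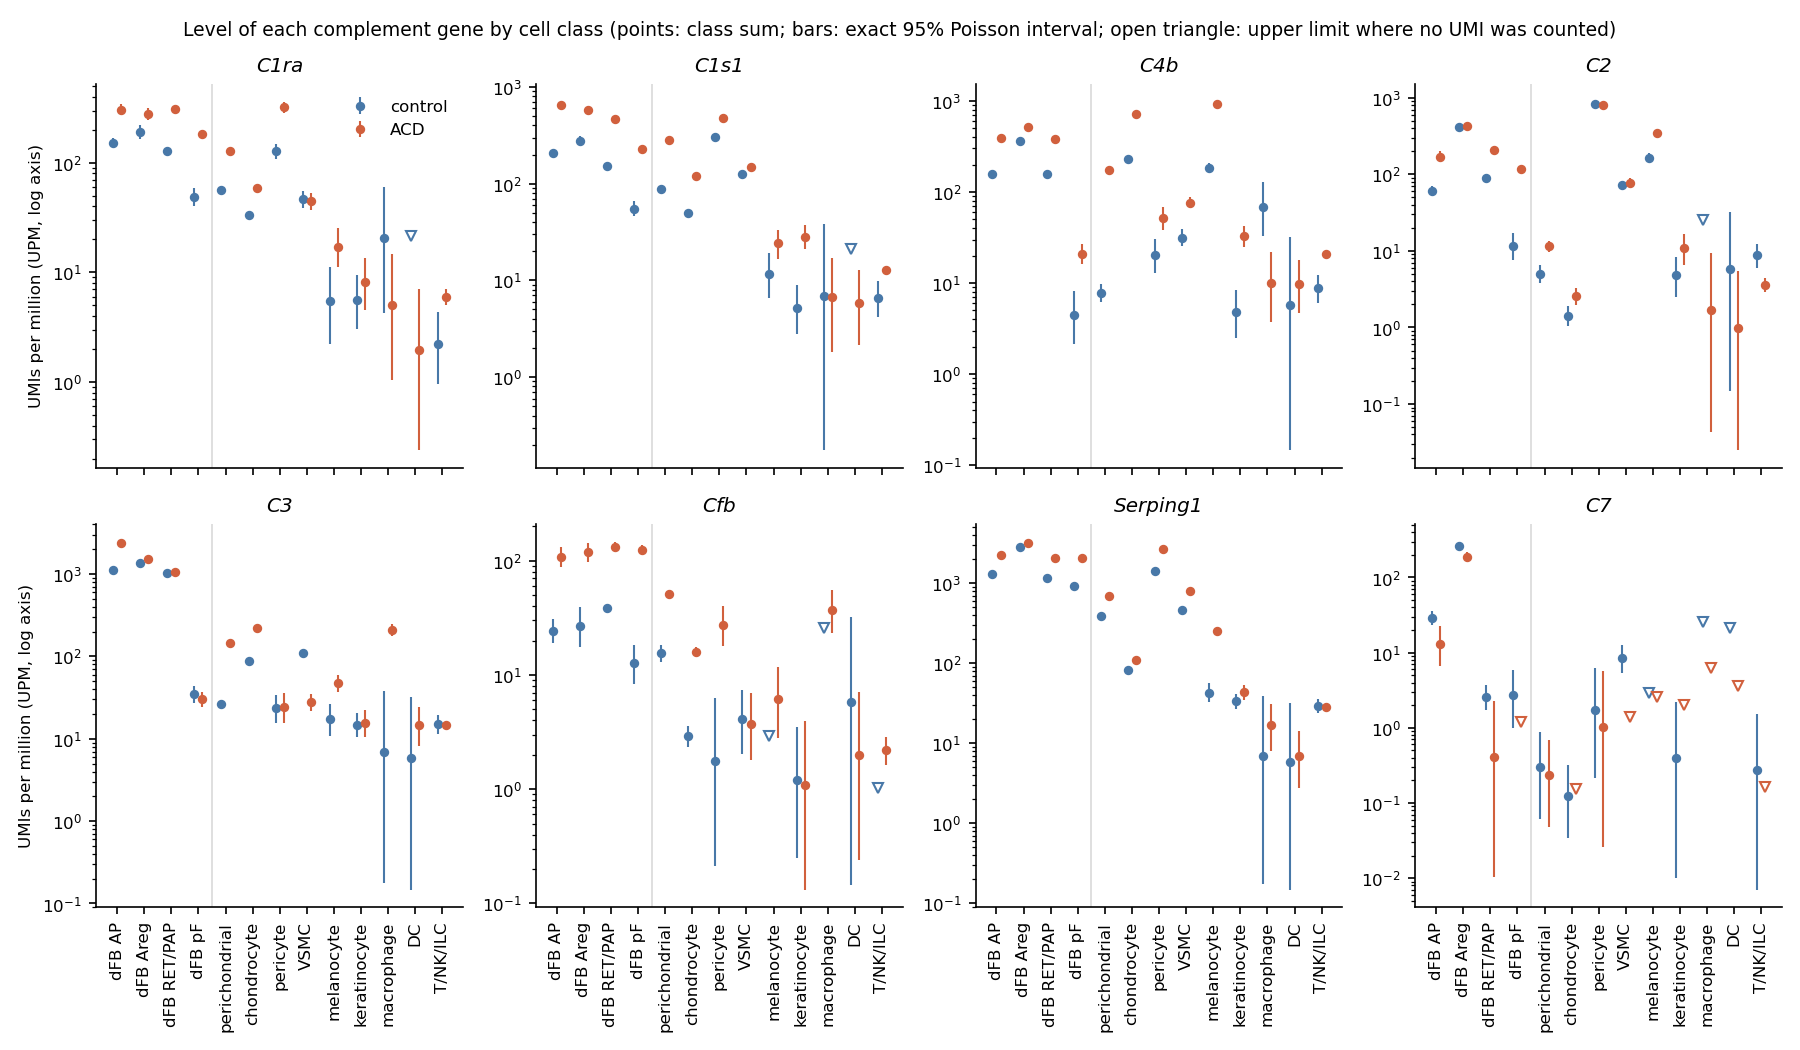
Level of each gene by cell class in UPM on log axes, control in blue and ACD in orange, with exact 95% Poisson intervals and open triangles at the 95% upper limit where no UMI was counted. C2 peaks in pericyte-like cells at 830 in control and 795 in ACD, C7 in Areg-like cells, and C3 in macrophage-like cells goes from 6.90 to 210.

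In keratinocyte-like cells the members were low, with no level above 43.4 UPM. 4 had enough UMIs, and C1s1 and C4b were past the rule and higher, but both reached the minimum through ACD, so no count is drawn from them. The other 2, C3 and Serping1, did not pass, and over all 7254 genes measured 1.68% were higher and 0.675% lower. C1s1 was at 5.20 UPM (2.77 to 8.89) in control and 28.2 (21.1 to 37.0) in ACD, and C4b at 4.80 (2.48 to 8.38) and 32.5 (24.8 to 41.9). After thinning, 2.42% of ACD keratinocyte-like cells had a C1s1 UMI and 1.61% a C4b UMI, against 1.78% and 2.34% of T/NK/ILC-like cells, so neither share, with intervals from 0.502% to 6.91% and from 0.196% to 5.70%, could be told from that of T/NK/ILC-like cells at this depth. The ACD level of C4b was above the 20.9 UPM of T/NK/ILC-like cells and 3.90 times what the dFB-like ratio to Dcn would bring. Unthinned, C1s1 was found in 5.03% and 25.7% of keratinocyte-like cells, which are deeper (medians of 14591 and 14275 UMIs). C2 was in 1.69% (0.351 to 4.87) and 4.84% (1.80 to 10.2) of thinned cells, on 3 and 6 cells, against 12 of 800 and 24 of 3373 T/NK/ILC-like cells, and the ACD share of 0.712% (0.456 to 1.06) there lay below the keratinocyte-like interval. Serping1 was in 6.21% (3.14 to 10.8) and 7.26% (3.37 to 13.3), against 2.50% (1.53 to 3.83) and 3.38% (2.80 to 4.05). With the cells thinned the count past the rule was 0, and with all deposited barcodes or without Scrublet calls it was 1. When cells were instead gated on Krt14 and Krt5 UMIs it was 7, in a gate that admits cells of any class that have both keratins and no Ptprc UMI. Of the myeloid genes, Cd74 was at 5.60 and 651 UPM in keratinocyte-like cells, Lyz2 had 3 and 8 UMIs and Csf1r 1 and 0, and the fibroblast genes summed to 2695 and 819. C3 was at 14.8 and 15.7 UPM in keratinocyte-like cells and at 15.1 and 14.7 in T/NK/ILC-like cells.

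Macrophage-like cells were few, 31 in control and 146 in ACD, of which 9 and 67 lay in a sub-cluster with a median of 1127 UMIs per cell. Of the members C3 alone had enough UMIs, but reached the minimum through ACD, so that its passing the rule is no support, and over all 2082 genes measured in these cells 11.8% were higher and 7.35% lower. C3 had 1 UMI in control, or 6.90 UPM (0.175 to 38.4), and 125 UMIs in ACD, or 210 (175 to 250). The log2 ratio was 4.93 with an interval from 2.42 to 10.24. After thinning, 35.9% (24.3 to 48.9) of 64 ACD cells had a C3 UMI against 2.19% of ACD T/NK/ILC-like cells, and 0 of 27 control cells did, with an exact upper limit of 12.8%; 82 ACD and 4 control cells were too shallow to be thinned. Without the shallow sub-cluster C3 had 0 UMIs in control and 115 in ACD.

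Cfb had no UMI in control macrophage-like cells and 22 in ACD, or 36.9 UPM (23.1 to 55.9), against a floor of 3 counts in control of 20.7 UPM, and the interval of the log2 ratio began at 0.41. The dFB-like ratio to Dcn would bring 8.09 UPM of C3 and 0.805 of Cfb at the Dcn level of ACD macrophage-like cells, against the 210 and 36.9 counted, and the part of other cells' RNA was not tested. C4b had 10 UMIs in control and 6 in ACD, at 69.0 (33.1 to 127) and 10.1 (3.70 to 21.9), and C1ra, C1s1, C2, Serping1 and C7 had 10 UMIs or fewer in each library. The C1q chains, which macrophages are known to make, were lower in ACD macrophage-like cells. C1qa was at 2642 and 410 UPM, C1qb at 1283 and 245, and C1qc at 1449 and 201. The macrophage-like cells of the control and ACD libraries thus also differed in these genes, and the part of that in the C3 difference was not tested. Median-of-ratios scaling shifted all ratios of this class by 0.13 on log2, and those of the other main classes by 0.07 or less.

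**Figure D5:**
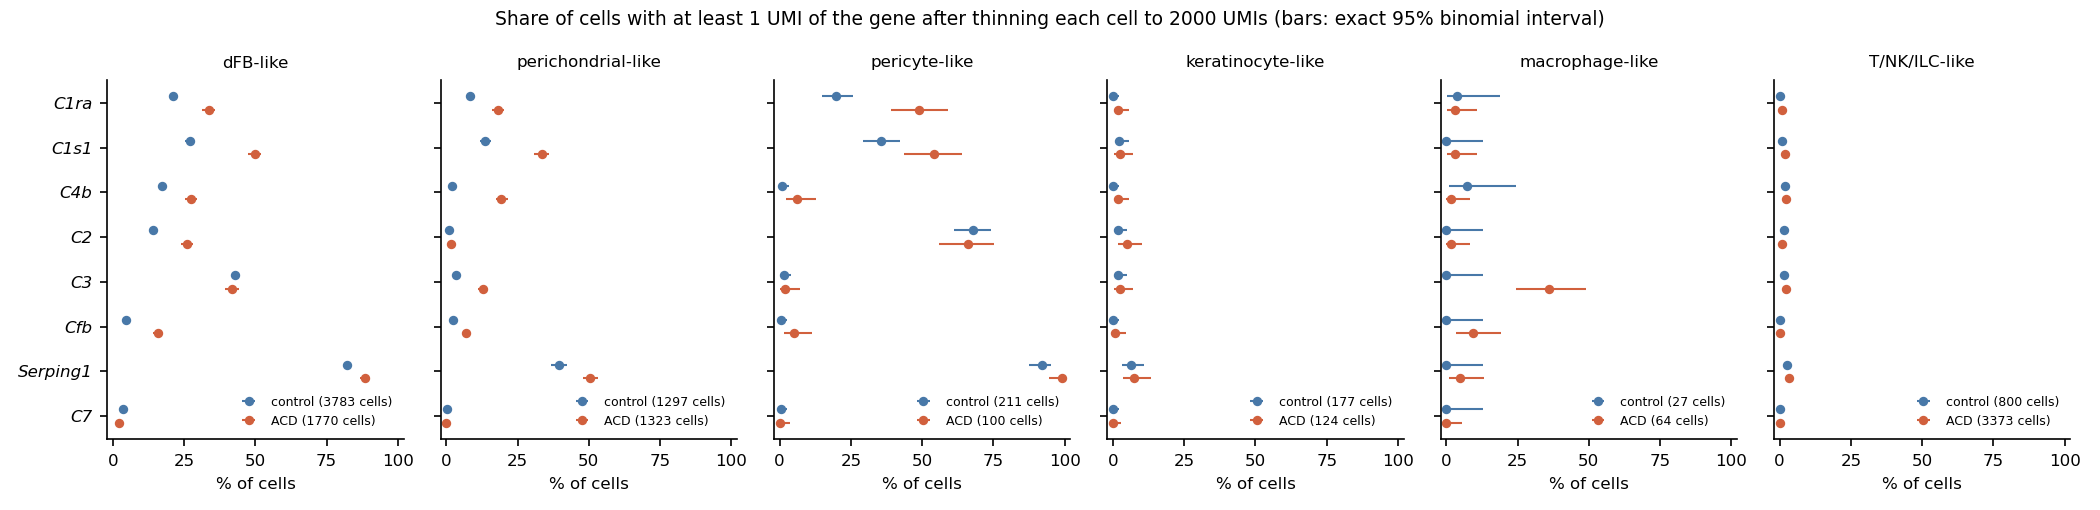
Share of cells with at least 1 UMI of each gene after thinning to 2000 UMIs per cell (points, %) with exact 95% binomial intervals, control in blue and ACD in orange, T/NK/ILC-like cells for comparison. C3 is at 35.9% in ACD macrophage-like cells and at 0% in control, C2 is at 67.8% and 66.0% in pericyte-like cells, and C4b is at 1.61% in ACD keratinocyte-like and 2.34% in ACD T/NK/ILC-like cells.

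In the other myeloid classes the members had few UMIs or stood beside fibroblast transcripts. DC-like cells (16 and 100) had 15 C3 UMIs in ACD, or 14.8 UPM, and 10 or fewer of each other member, and Langerhans-like cells (32 and 28) had at most 7 UMIs of a member in a library. Neutrophil-like cells (4 and 71) had 97 Serping1 and 51 C3 UMIs in ACD, or 419 and 220 UPM. The 5 fibroblast genes summed to 9142 UPM in those cells, and every member with a UMI in the ACD cells was at 0.352 to 0.854 of the level that the dFB-like ratio to Dcn would bring. Basophil-like cells (9 and 268) had C4b at 241 and 71.6 and Serping1 at 724 and 92.0, with the fibroblast genes at 43341 and 3344. C4b there was 4.84 and 2.24 times the level that the dFB-like ratio to Dcn would bring, and the part of other cells' RNA in these classes was not tested. Mast cell-like cells (100 and 154) had 17 or fewer UMIs of each member in each library.

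Several further stromal and neural crest classes carried C4b. In chondrocyte-like cells 4 of 7 members were past the rule and higher (0.283% of all genes measured), with C4b at 230 UPM (225 to 235) in control and 722 (711 to 732) in ACD, C3 at 88.9 and 224, C1s1 at 49.6 and 119, and Cfb at 2.91 and 15.9. In melanocyte-like cells 4 of 5 were (1.43%), with C4b at 184 (161 to 209) and 922 (873 to 973), C2 at 165 and 349, Serping1 at 43.0 and 254 and, with the minimum reached through ACD, C3 at 17.2 and 47.4. C4b and C1s1 passed in Schwann-like cells (2 of 6 members, 1.47%), at 31.4 and 190 and at 30.5 and 89.6. In endothelial-like cells C2 alone of 6 passed (2.59%), at 14.5 and 39.3, with the minimum reached through ACD. In vascular smooth muscle-like (VSMC-like) cells C4b was higher (1 of 6 members, 1.04%), at 31.6 and 76.2, and C3 was lower (1 of 6, 1.78%), at 109 and 27.8.

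Of 44 further complement genes in the tables, 13 had enough UMIs in dFB-like cells, and 2 of them passed the rule, C1rb and C1s2, both higher. In perichondrial-like cells 3 of the 10 with enough UMIs passed and were higher. Among them were C1s2, from 12.4 to 47.9, and C1rb, from 29.9 to 74.2. In pericyte-like cells C1rb and C1s2 were higher and clusterin (Clu), a fluid-phase regulator, was lower, from 153 to 45.6. No other of the 9 passed there, and 0 of 4 passed in keratinocyte-like cells. In macrophage-like cells 4 of 8 were lower, the 3 C1q chains and properdin (Cfp, from 331 to 123). Over all 2082 genes measured there, 7.35% were lower and 11.8% higher. The complement receptor subunit Itgax went from 27.6 to 77.2 on 4 and 46 UMIs. It reached the minimum through ACD, so that its passing the rule as higher is no support. The membrane regulators Cd55, at 61.0 and 60.2, and Cr1l, at 61.3 and 60.5, were close between the libraries in dFB-like cells.

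The members fell into patterns across 34 class-by-library levels, each of at least 50 cells, which share libraries and depth. C1ra and C1s1 were alike, with a Pearson r of 0.97 on log2 of the level plus 10, and Serping1 followed C1ra at 0.93. C1rb was the gene most like C1ra among 13391 compared (0.98), and C1s2 the third (0.94). C2 was most like Naalad2 (0.87), Cnrip1 and Plat, and Cfb most like Saa3, Fam198a and Ly6c1 (0.79 to 0.80). C3 was most like Mmp3 (0.86), Gxylt2 and Mmp27, C4b like Pcolce2, Serpina3n and Epdr1 (0.73 to 0.74), and Serping1 like C1ra, C1rb and Pcolce. C7 was most like Plcxd3 (0.98, but 0.54 by Spearman correlation), Sfrp4 and Ces2g. The lowest of the 28 pairs among the members was Cfb with C4b, at 0.33.

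Counted per cell, dFB-like cells thinned to 2000 UMIs had a median of 2 of the 8 members detected in control and 3 in ACD. The share with 4 or more was 15.9% in control and 35.3% in ACD, 0.154% and 6.27% in perichondrial-like cells, and 6.64% and 29.0% in pericyte-like cells. In dFB-like cells the share with a UMI was higher in ACD with intervals that did not overlap for 6 members, among them C1s1 from 26.9% (25.4 to 28.3) to 49.7% (47.4 to 52.1) and Cfb from 4.55% (3.90 to 5.26) to 15.9% (14.2 to 17.7). The C3 share was 42.9% (41.3 to 44.5) and 41.8% (39.4 to 44.1), with intervals that overlap, and the C7 share 3.65% (3.07 to 4.30) and 2.09% (1.48 to 2.87). The unthinned shares were 60.6% and 80.5% for C1s1, 16.1% and 43.1% for Cfb, 55.0% and 53.5% for C3 and 7.98% and 5.99% for C7, at median depths of 7137 and 9444.5 UMIs.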

How the data were processed

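Ear skin cells of 1 control and 1 ACD library were profiled with a droplet 3′ kit. The deposited values are raw UMI counts per gene and barcode. The submitters' processing notes name Cell Ranger 3.1.0 and mm10, while the study's methods give another Cell Ranger version. Barcodes were kept where they held more than 200 and fewer than 5000 genes, no more than 25000 UMIs and a mitochondrial share below 8%; the study states fewer cells than this leaves. Its upper UMI limit is printed there with the sign of a lower one and was read as an upper limit.

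Counts were scaled to 10000 per cell and log-transformed, and 2000 variable genes without complement and mitochondrial genes gave 30 principal components, a graph of 20 neighbours and 34 Leiden clusters (scanpy 1.11.5, leidenalg 0.10.2, Python 3.11.15). Names came from fixed markers, with macrophage and monocyte lists merged. The naming thresholds, the merging and the removal of genes that differed 2-fold between the libraries from the sub-clustering were set after the clusters were seen. A class level is its UMI sum per 1000000 UMIs of the class (UPM), with exact 95% Poisson intervals, and a ratio has an exact conditional (Clopper-Pearson) interval. Shares have exact binomial intervals. UMIs are molecules, but cells of 1 library are not replicates. Scrublet marked 4.59% of control and 3.53% of ACD cells as doublets, which stayed in.

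Named genes were the 8 members in every main class, further complement genes past the rule of size (at most the 4 largest per class, with Itgax in macrophage-like and Cd55 and Cr1l in dFB-like cells named after their values were seen), the 3 genes most alike each member, class markers, Cxcl9 and the fixed fibroblast genes. Some genes of these lists are not reported here. The members and lists were chosen with earlier results of these data known. The interval and calling steps were tested on simulated data. Alternatives varied the scaling, cell weights, pseudocount, minimum of UMIs, cell filter, doublets, clustering and class definition.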

Additional observations from a re-analysis of the deposited data

Results flagged for a closer look

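C3 was past the 2-fold rule in opposite directions in different cell classes with at least 50 cells in each library. Its log2 ratio of ACD over control was 2.47 in perichondrial-like cells, 1.46 in melanocyte-like cells (22 and 69 UMIs, with the minimum of 50 reached through ACD) and 1.33 in chondrocyte-like cells, and -1.97 in VSMC-like cells. With 1 library per group the difference between the classes was not tested. In VSMC-like cells the fibroblast genes Col1a1, Col1a2, Col3a1, Dcn and Lum summed to 13101 UPM in control and 2559 in ACD. C3 there, at 109 and 27.8 UPM, was 0.762 and 0.422 of the level that the dFB-like ratio of C3 to Dcn would bring at the Dcn level of VSMC-like cells, and the part of fibroblast RNA in the C3 difference was not tested.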

How the results depend on the processing

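Of 33 member ratios past 2-fold in a class or subtype, 420 of 421 values under the alternatives kept their direction and 375 stayed past 2-fold. C2 in AP-like cells reversed, to -0.06, with differing genes kept in the sub-clustering, an alternative chosen after seeing the data. The 33 include C1s1 and C4b in keratinocyte-like, C4b in pericyte-like and pF-like and C3 in macrophage-like cells. These reached the minimum through ACD, so their stability is no support. Over all 56 member ratios, past 2-fold or not, 661 of 698 values kept their direction. Members higher in dFB-like cells numbered 5, but 2 with the mean over cells, 3 after thinning, 2 at resolution 2, 3 with the libraries clustered separately, 3 with marker gates and 2 without the Cxcl9-led sub-cluster (also chosen after seeing the data). Of 2 in keratinocyte-like cells, thinning left 0, all deposited barcodes 1, Scrublet removal 1, and gates gave 7. Of 2 in pericyte-like cells, Scrublet removal left 1 and a minimum of 20 UMIs or none gave 3. In macrophage-like cells 1 became 2 with a minimum of 20 UMIs or none, and without a minimum 2 were lower. Areg-like cells had 1 in place of 2 under the stricter filter, all barcodes, resolution 0.5, resolution 2 and with complement genes clustered, and 0 with differing genes kept. AP-like cells had 1 at resolution 2 and 2 with differing genes kept in place of 5, and RET/PAP-like cells 3 and 0 in place of 5. The cause was not tested. By Spearman correlation 12 of the 24 genes named as most alike stayed among the nearest 3. Those named for C7 then ranked 380, 324 and 692, and those for C3 58, 26 and 154.

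No pericyte-like class was obtained under the stricter filter, all barcodes, either other resolution, complement genes clustered or separate clustering, no macrophage-like class at resolution 0.5 or in the separate control clustering, and no AP-like group in the separate clustering. No paired analysis was possible because each group has 1 library, and no replicate could be left out. Of the 5 main classes, macrophage-like cells had the fewest control UMIs, 144940 in all, and 1 member with enough UMIs for the rule.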
